A study of Homo sapiens with 22 samples.

Results

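The TNF ligand and receptor superfamily was followed in MDA-MB-231 cells, a line of triple-negative breast cancer. A gene was taken as a member if its symbol began with TNFSF (ligands) or TNFRSF (receptors), or if it was TNF, LTA, LTB, FAS, FASLG, CD40, CD70 or CD27. This rule gave 41 of the 20668 genes with a value, 16 ligands, 24 receptors and 1 readthrough transcript that joins TNFSF12 and TNFSF13. The rule used no measured value. RNA-seq was performed on 10 samples in 5 groups of 2, and the other 12 samples of the series, chromatin immunoprecipitations, were not analysed here.

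The 5 groups were vehicle, 100 nM dexamethasone (Dex, a synthetic glucocorticoid that activates the glucocorticoid receptor, GR) for 2 h or 4 h, and 10 µM Compound A (CpdA, a non-steroidal modulator of GR) for 2 h or 4 h. All cells, vehicle included, had been kept in phenol red-free medium with charcoal-stripped serum, which is low in steroid hormones. The vehicle labels carried no time point, but the column header of vehicle replicate 1 named 2 h and that of vehicle replicate 2 named 4 h, so that time and replicate of the vehicle samples cannot be told apart. The doses of the ligands differed, and each was given at 1 dose. The 2 samples of a group were biological replicates by the study's description, in 1 cell line.

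Ligands of this superfamily are mostly trimeric membrane proteins that can be shed, and their receptors fall into classes by what the intracellular part recruits. Death domain receptors bind adaptors such as FADD or TRADD and can lead to caspase activation or to NF-κB signalling, receptors without a death domain mostly bind TRAF proteins and signal to NF-κB, and decoy receptors bind ligand without passing on a full signal. In breast cancer cells the family is known above all for the TRAIL system (TNFSF10 and its receptors), and glucocorticoids are known in many cells to hold back inflammatory genes of the NF-κB and AP-1 pathways.

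The cells expressed the 4 markers listed for the line, VIM at 1267 to 1464 RPKM (reads scaled by transcript length and by the mapped reads of the sample), AXL at 212 to 264, KRT18 at 164 to 219 and CD44 at 119.7 to 182, whereas ESR1 did not exceed 0.00484 and PGR 0.00253 RPKM. ERBB2, at 15.9 to 21.6 RPKM, and EPCAM, at 8.02 to 10.6 RPKM, were expressed although they had been listed as low. Of the immune markers, PTPRC did not exceed 0.0630 and CD3E 0.0114 RPKM, CD68 and CD14 passed the filter, and the summed level of the 4 markers was 33.8 to 37.8 RPKM over all samples with overlap between groups. The relative depth of the samples, read from the smallest steps of the RPKM values, ran from 1.00 to 1.21 times that of vehicle replicate 1. The Dex samples responded. FKBP5, a classical GR target, was at 5.94 and 7.06 RPKM in vehicle. It was at 75.0 and 73.4 RPKM after 2 h of Dex and 203 and 212 after 4 h. With CpdA FKBP5 was at 5.97 and 6.08 RPKM after 2 h and 7.805 and 7.96 after 4 h, the latter above both vehicle samples. PER1 and TSC22D3, also listed to check the treatment, were higher with both ligands at both times. PER1 was at 2.07 and 1.28 RPKM in vehicle, 34.9 to 38.65 with Dex and 2.88 to 3.96 with CpdA. TSC22D3 was at 9.79 and 8.22 RPKM in vehicle, 302.3 to 315.3 with Dex and 10.47 to 12.38 with CpdA. ZBTB16 was at 0 in all vehicle and CpdA samples, at 0.0212 and 0 RPKM after 2 h of Dex, and at 0.525 and 0.602 after 4 h of Dex. It reached 0.5 RPKM in that group alone, so that a test of ZBTB16 carries no weight.

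A member was taken as tested if it reached 0.5 RPKM in at least 2 samples, and 25 of the 41 did. Every death domain receptor (6 of 6) and decoy receptor (4 of 4) passed, as did 8 of 14 other receptors, 6 of 16 ligands and the readthrough transcript. The 16 that did not pass were CD27, CD70, FASLG, LTA, LTB, TNF, TNFRSF13B, TNFRSF17, TNFRSF4, TNFRSF8, TNFRSF9, TNFSF11, TNFSF13B, TNFSF14, TNFSF18 and TNFSF8. The receptor TNFRSF12A (Fn14, which binds TWEAK) was the highest member with a mean of 219 RPKM over the 10 samples, followed by TNFRSF21 (DR6) at 86.1, TNFRSF1A at 58.2, TNFRSF10B at 37.2 and the ligand TNFSF9 at 20.6 RPKM. This order differed between groups, with TNFRSF1A (mean 86.6 RPKM) above TNFRSF21 (54.2) after 4 h of Dex and TNFSF10 (26.1) above TNFSF9 (21.7) in vehicle. TNF itself did not exceed 0.0210 RPKM in any sample and was listed at 0 in both samples of Dex at 4 h.

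**Figure D1:**
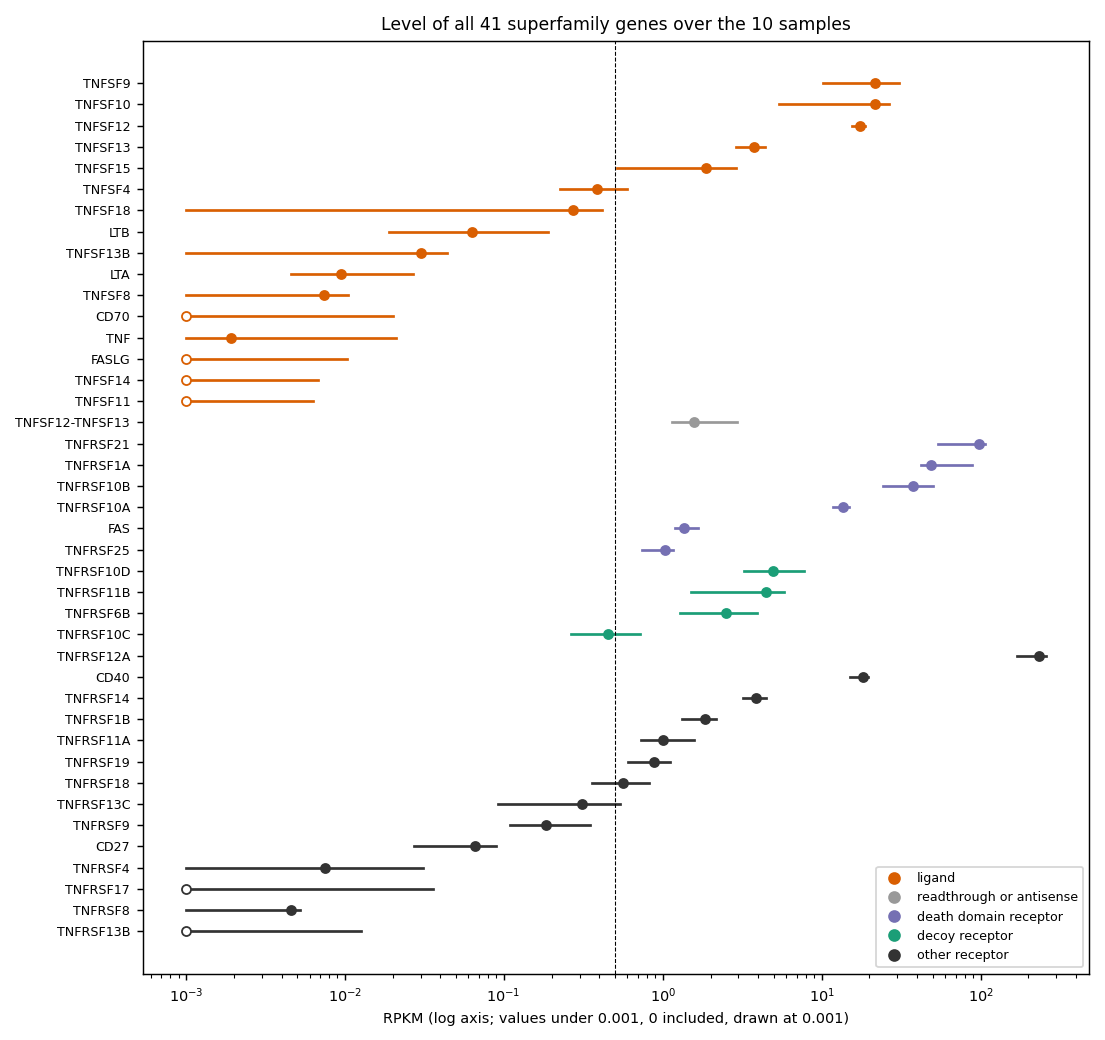
Level of each of the 41 members over the 10 samples in RPKM on a log axis, grouped by role; points are medians, lines run from the lowest to the highest sample, open points mark medians of 0, and the dashed line stands at 0.5 RPKM. Receptors with a death domain all lie to the right of the line, whereas 10 of 16 ligands do not reach it in 2 samples.

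Expression was compared with limma on log2(RPKM + 0.1), a scale that understates the change of low genes, and a gene was called at an adjusted p under 0.05 over the 12713 genes tested. After 2 h of Dex, 9 of 25 members were called against 10.3% of all genes. Of these members 1 was higher and 8 were lower, beside 4.49% and 5.82% of all genes, and 3 passed a fold change of 2, beside 2.01%. After 4 h of Dex, 12 of 25 were called against 27.4%, with 1 higher (9.26% of all genes), 11 lower (18.2%) and 4 past a fold change of 2 (3.78%). After 2 h of CpdA, 4 of 25 were called against 6.18%, with 1 higher (1.89%), 3 lower (4.29%) and 1 past a fold change of 2 (0.488%). After 4 h of CpdA, 7 of 25 were called against 20.5%, with 1 higher (6.76%) and 6 lower (13.8%). Against the vehicle sample of the same time alone, as its header names it, the counts were 9, 12, 3 and 5 in this order. In all, 13 members were called in at least 1 of these 4 comparisons and 12 in none. The median difference from vehicle of the 25 members was −0.20 and −0.40 on the log2 scale after Dex at 2 and 4 h, and −0.09 and −0.13 after CpdA, beside −0.02, −0.05, −0.02 and −0.04 over all genes tested. The 4 comparisons shared the 2 vehicle samples. Markers moved with these groups too, and their part in the members' differences was not tested. Of the 4 line markers, CD44 (−0.49 ± 0.06) and AXL (−0.24 ± 0.04) were called lower after 4 h of Dex, CD44 also after 2 h of Dex (−0.31 ± 0.06; lost without Dex 2 h replicate 1, adjusted p = 0.068) and AXL after 4 h of CpdA (−0.23 ± 0.04; lost without CpdA 4 h replicate 2, adjusted p = 0.052), and their summed level was 2081 and 2097 RPKM in vehicle and 1780 and 1955 after 4 h of Dex. Of the 3 fibroblast markers, DCN did not exceed 0.0142 RPKM. COL1A1 was at 2.14 and 2.60 RPKM in vehicle and 1.33 and 1.23 after 4 h of Dex (−0.83 ± 0.11). It also lay below vehicle after 2 h of Dex (1.63 and 1.69 RPKM). After CpdA COL1A1 was at 1.84 and 1.85 RPKM at 2 h and 1.545 and 1.62 at 4 h. COL1A2 was at 8.57 and 8.33 RPKM in vehicle, 8.125 and 7.60 after 4 h of Dex and 10.68 and 9.94 after 2 h of CpdA. The sum of the 3 was 10.7 and 10.9 RPKM in vehicle and 8.85 and 9.46 after 4 h of Dex. Of the markers listed as low, ERBB2 went from 18.65 and 17.65 RPKM in vehicle to 21.61 and 20.74 after 4 h of Dex. EPCAM went from 9.23 and 9.51 to 8.90 and 8.02 there. After 4 h of CpdA ERBB2 was at 16.4 and 15.94 RPKM and EPCAM at 10.64 and 10.25. The endothelial markers summed to 0.196 to 0.342 RPKM over all samples. Fewer cells that express a gene and less of its RNA per cell cannot be told apart in these bulk samples.

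**Figure D2:**
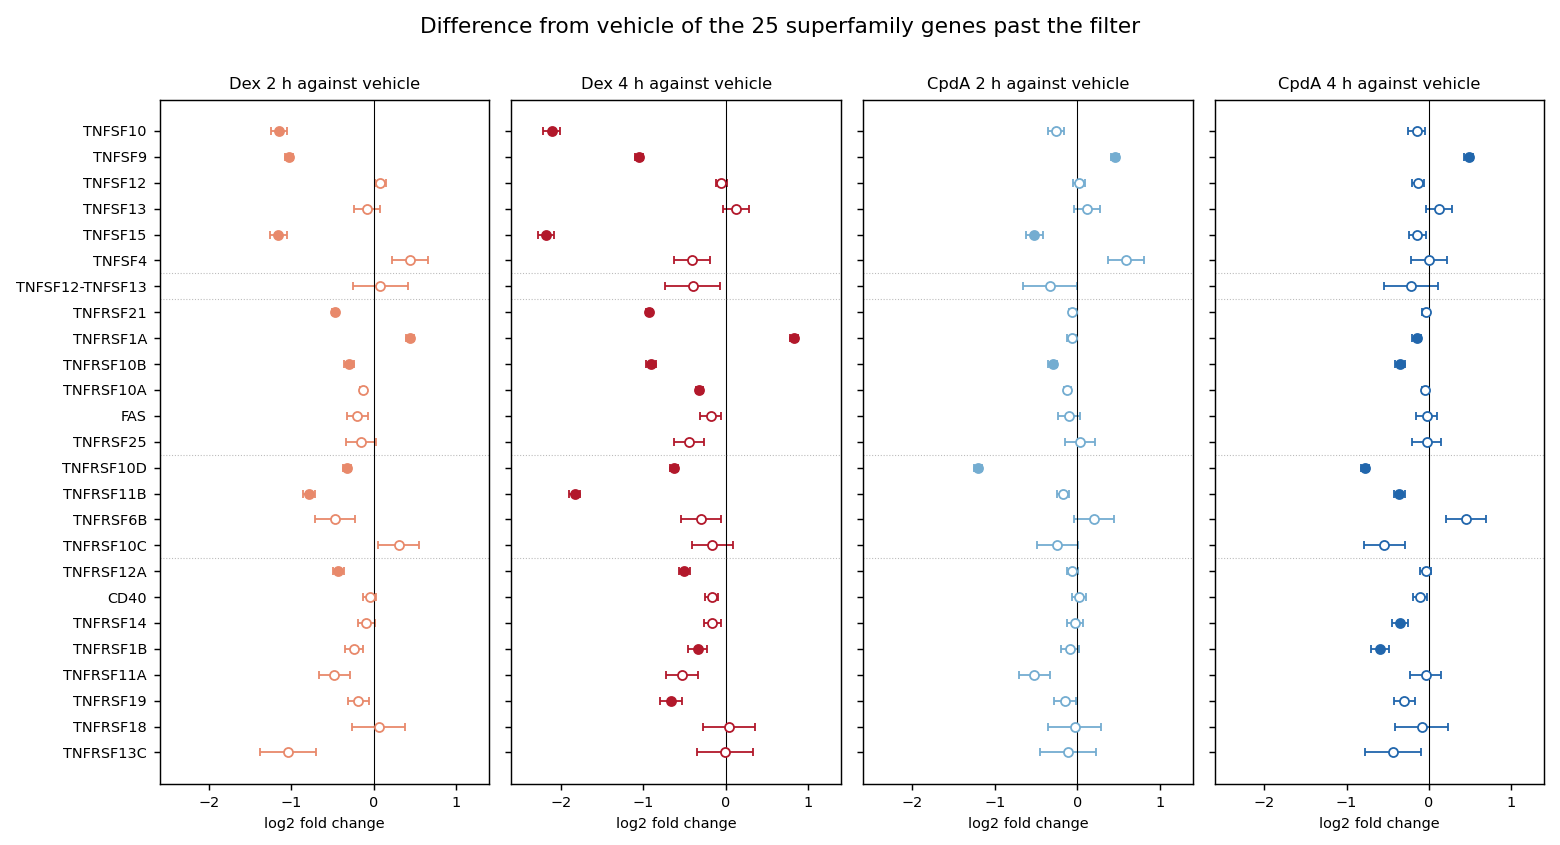
Difference from vehicle of the 25 tested members on the log2(RPKM + 0.1) scale, 1 panel per ligand and time; points are limma estimates, bars 1 standard error, and filled points are called at adjusted p under 0.05. TNFSF10, TNFSF15 and TNFRSF11B lie farthest to the left after 4 h of Dex (−2.11, −2.18 and −1.83), and TNFRSF10D after 2 h of CpdA (−1.20).

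Of the 6 tested ligands, 3 fell after Dex at both times, each more than 2-fold. Of all genes, 5.82% fell after 2 h of Dex and 18.2% after 4 h, and 2.01% and 3.78% passed a fold change of 2 in either direction. TNFSF10 encodes TRAIL, which triggers apoptosis through the death receptors TNFRSF10A and TNFRSF10B. It was at 26.6 and 25.6 RPKM in vehicle, 12.8 and 10.7 after 2 h of Dex, 6.56 and 5.41 after 4 h of Dex, 21.6 and 21.9 after 2 h of CpdA, and 23.4 and 23.5 after 4 h of CpdA. The 5 groups did not overlap, and the Dex samples were lowest. TNFSF10 was 2.22-fold lower at 2 h of Dex (log2 fold change −1.15 ± 0.10 SE, adjusted p = 5.1e-05) and 4.32-fold lower at 4 h (−2.11 ± 0.10, adjusted p = 4.5e-07). The differences after CpdA were not called. They were −0.26 at 2 h (95% interval −0.48 to −0.05 before adjustment, adjusted p = 0.16) and −0.15 at 4 h (−0.37 to 0.06).

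TNFSF15 encodes TL1A, the ligand of the death domain receptor TNFRSF25 and of the decoy TNFRSF6B. Its level was low, at 2.61 and 2.88 RPKM in vehicle, and was 1.13 and 1.20 after 2 h of Dex, 0.513 and 0.539 after 4 h of Dex, 1.75 and 2.02 after 2 h of CpdA, and 2.58 and 2.39 after 4 h of CpdA. All Dex samples lay below all others, and each group lay below vehicle. It fell 2.24-fold at 2 h of Dex (−1.16 ± 0.10, adjusted p = 8.3e-05) and 4.54-fold at 4 h (−2.18 ± 0.10, adjusted p = 6.3e-07). After CpdA it fell by 1.44-fold at 2 h (−0.52 ± 0.10, adjusted p = 0.022), a call that was lost without CpdA 2 h replicate 1 (−0.43, adjusted p = 0.21), CpdA 2 h replicate 2 (−0.62, adjusted p = 0.065) or vehicle replicate 2 (−0.45, adjusted p = 0.13). At 4 h of CpdA the difference was −0.14 with a 95% interval of −0.37 to 0.10.

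TNFSF9, the ligand of the T cell costimulatory receptor TNFRSF9 (CD137), went one way with Dex and the other with CpdA. It was at 22.2 and 21.2 RPKM in vehicle, 10.4 and 10.8 after 2 h of Dex, 10.2 and 10.6 after 4 h of Dex, 30.5 and 29.1 after 2 h of CpdA, and 30.7 and 29.9 after 4 h of CpdA. Every Dex sample lay below vehicle and every CpdA sample above it, and the 2 times of each ligand overlapped. The fall with Dex was 2.04-fold at 2 h (−1.03 ± 0.05, adjusted p = 9.4e-07) and 2.08-fold at 4 h (−1.05 ± 0.05, adjusted p = 4e-07), and the rise with CpdA 1.37-fold (0.46 ± 0.05, adjusted p = 0.00079) and 1.39-fold (0.48 ± 0.05, adjusted p = 0.00021). It was the single member that rose after CpdA at either time.

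The promoters of these ligands, 250 bases before to 50 bases after the start of transcription, are shown because the genes fell together with Dex. They are RefSeq sequences of GRCh38.p14, 5′ to 3′ on the strand of the gene, and capitals mark a match to the AP-1 motif TGANTCA. TNFSF10 lies at chr3:172523381-172523680 on the minus strand, TNFSF15 at chr9:114792481-114792780 on the minus strand, and TNFSF9 at chr19:6530776-6531075 on the plus strand.
TNFSF10: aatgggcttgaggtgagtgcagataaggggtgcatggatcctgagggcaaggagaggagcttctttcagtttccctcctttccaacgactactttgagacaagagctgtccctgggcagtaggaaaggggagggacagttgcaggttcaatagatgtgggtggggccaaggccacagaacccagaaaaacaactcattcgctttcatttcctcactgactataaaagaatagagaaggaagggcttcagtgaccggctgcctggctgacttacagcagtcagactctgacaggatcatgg
TNFSF15: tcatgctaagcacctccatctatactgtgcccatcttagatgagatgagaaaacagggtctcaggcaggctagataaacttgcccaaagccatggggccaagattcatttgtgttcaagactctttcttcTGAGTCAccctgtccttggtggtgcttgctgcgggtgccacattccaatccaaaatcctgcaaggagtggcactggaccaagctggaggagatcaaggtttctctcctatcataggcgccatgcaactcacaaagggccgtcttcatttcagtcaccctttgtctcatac
TNFSF9: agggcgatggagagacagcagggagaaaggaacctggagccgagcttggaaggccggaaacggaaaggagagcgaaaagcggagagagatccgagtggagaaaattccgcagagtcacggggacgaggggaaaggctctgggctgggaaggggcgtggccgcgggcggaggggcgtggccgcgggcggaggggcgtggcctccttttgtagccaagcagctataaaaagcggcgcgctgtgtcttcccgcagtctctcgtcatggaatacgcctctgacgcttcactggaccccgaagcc
The TNFSF15 window held 1 AP-1 match, which began 120 bases before the start. The glucocorticoid response element searched, the half-sites GNACA and TGTNC spaced by 3 bases, and the NF-κB consensus had no match in these 3 windows on either strand, which says only that these letters are not in this stretch. Windows were found for 27 of the 41 members, 36 windows in all. The response element matched in 0.39% of all 35116 windows and in no member's, the AP-1 motif in 7.71% and in 6 members, and the NF-κB consensus in 11.3% and in 10 members. The percentages are of single windows, whereas a member was counted if any of its windows matched. The member counts therefore cannot be set against these percentages.

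The other tested ligands, TNFSF12 (TWEAK), TNFSF13 (APRIL, a B cell survival factor) and TNFSF4 (OX40 ligand), were not called against vehicle. TNFSF12 lay between 15.5 and 18.9 RPKM and TNFSF13 between 2.90 and 4.39, with overlap of all groups in TNFSF13. The 2 genes lie next to each other on chromosome 17, and the readthrough transcript TNFSF12-TNFSF13 (1.15 to 2.93 RPKM) shares sequence with both, so that the split of reads among the 3 is uncertain. TNFSF4 passed the filter through its highest group alone, CpdA at 2 h (0.593 and 0.509 RPKM), and was not tested when either of those samples was left out. It was at 0.430 and 0.253 RPKM in vehicle, 0.484 and 0.493 after 2 h of Dex, 0.228 and 0.225 after 4 h of Dex, and 0.317 and 0.347 after 4 h of CpdA. The vehicle samples lay between the times of Dex, whose difference was −0.85 ± 0.22 (adjusted p = 0.034). That call was lost without any 1 of the Dex samples (adjusted p = 0.058 to 0.14) and also without CpdA 4 h replicate 1 (0.059) or replicate 2 (0.058).

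**Figure D3:**
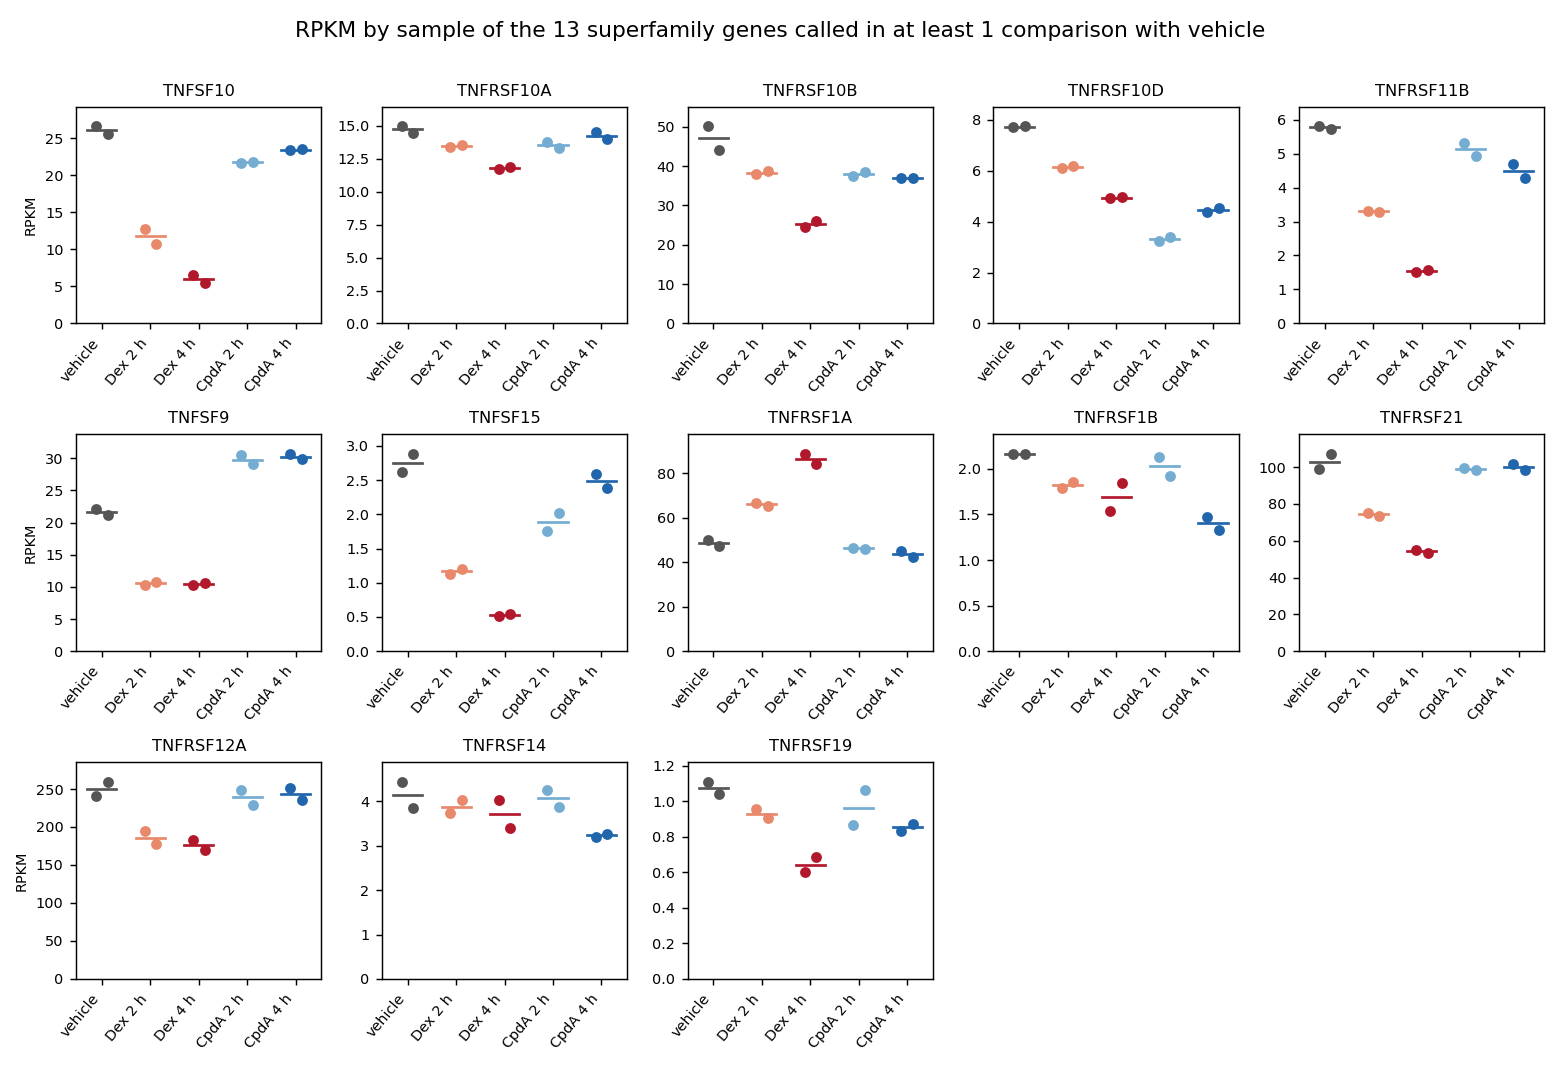
RPKM of the 13 members called in at least 1 comparison with vehicle, a panel each with its own axis from 0; points are samples and lines group means (n = 2). TNFRSF1A is the panel in which the Dex samples rise, to 88.8 and 84.4 RPKM at 4 h, and TNFSF9 the panel in which the CpdA samples rise.

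Among the 6 death domain receptors, 1 rose and 2 fell after 2 h of Dex, and 1 rose and 3 fell after 4 h. Of all genes, 4.49% rose and 5.82% fell after 2 h of Dex, and 9.26% and 18.2% after 4 h. TNFRSF1A, the main receptor of TNF, was the single member that rose with Dex. It was at 49.9 and 47.3 RPKM in vehicle, 66.9 and 65.3 after 2 h of Dex, 88.8 and 84.4 after 4 h of Dex, 46.3 and 46.2 after 2 h of CpdA, and 44.95 and 42.36 after 4 h of CpdA. The Dex samples lay above all others, and those at 4 h above those at 2 h. The rise was 1.36-fold at 2 h (0.44 ± 0.05, adjusted p = 0.00023) and 1.78-fold at 4 h (0.83 ± 0.05, adjusted p = 1.7e-06). After 4 h of CpdA TNFRSF1A was 1.11-fold lower (−0.15 ± 0.05, adjusted p = 0.045), which held in 8 of 19 alternatives and was lost on leaving out, among others, CpdA 4 h replicate 2 (−0.11, adjusted p = 0.28), CpdA 4 h replicate 1 (−0.20, adjusted p = 0.075) or vehicle replicate 1 (−0.12, adjusted p = 0.2).

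The window of TNFRSF1A, which rose with Dex, is also given, at chr12:6342027-6342326 on the minus strand of GRCh38.p14. It held none of the 3 motifs, and neither did the windows of the falling TNFSF10 and TNFSF9.
TNFRSF1A: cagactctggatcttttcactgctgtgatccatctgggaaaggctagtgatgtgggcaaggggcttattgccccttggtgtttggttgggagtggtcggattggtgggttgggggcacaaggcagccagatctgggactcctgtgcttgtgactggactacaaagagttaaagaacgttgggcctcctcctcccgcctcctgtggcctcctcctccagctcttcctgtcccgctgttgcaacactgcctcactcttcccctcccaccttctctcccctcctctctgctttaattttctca

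TNFRSF21 (DR6), a death domain receptor with no classical ligand in the family, fell with Dex and not with CpdA. It was at 99.0 and 107 RPKM in vehicle, 75.0 and 73.5 after 2 h of Dex, 54.7 and 53.6 after 4 h of Dex, 99.6 and 98.2 after 2 h of CpdA, and 101 and 98.7 after 4 h of CpdA. The CpdA samples overlapped vehicle and the Dex samples lay apart from both. It was 1.39-fold lower at 2 h (−0.47 ± 0.04, adjusted p = 0.00011) and 1.90-fold lower at 4 h (−0.93 ± 0.04, adjusted p = 6.3e-07), whereas after 4 h of CpdA the difference was −0.04 with a 95% interval of −0.14 to 0.06.

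The receptors that pass on the TRAIL signal, TNFRSF10A (DR4) and TNFRSF10B (DR5), also fell with Dex. TNFRSF10B was at 50.1 and 44.2 RPKM in vehicle, 37.9 and 38.7 after 2 h of Dex, 24.5 and 26.0 after 4 h of Dex, 37.6 and 38.6 after 2 h of CpdA, and 37.1 and 36.9 after 4 h of CpdA. All treated samples lay below vehicle, those of Dex at 4 h lowest, and Dex and CpdA at 2 h overlapped. The fall was 1.86-fold at 4 h of Dex (−0.90 ± 0.06, adjusted p = 5.2e-06) and between 1.23-fold and 1.27-fold in the other 3 groups (adjusted p = 0.0036 to 0.019). At 2 h the call was lost without either sample of the treated group, for Dex at adjusted p = 0.09 and 0.057 and for CpdA at 0.16 and 0.1. TNFRSF10A was at 15.0 and 14.5 RPKM in vehicle, 13.4 and 13.6 after 2 h of Dex, 11.7 and 11.9 after 4 h of Dex, 13.8 and 13.3 after 2 h of CpdA, and 14.5 and 14.0 after 4 h of CpdA. It was called after 4 h of Dex alone, where it was 1.24-fold lower (−0.32 ± 0.04, adjusted p = 0.00063).

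FAS and TNFRSF25 were not called in any comparison with vehicle. FAS, the receptor of FAS ligand, ran from 1.20 to 1.67 RPKM, with −0.18 at 4 h of Dex and a 95% interval of −0.48 to 0.13. TNFRSF25 (DR3), a receptor of TNFSF15, ran from 0.739 to 1.16 RPKM, with −0.44 at 4 h of Dex and an interval of −0.85 to −0.03 before adjustment.

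Of the 4 decoy receptors, TNFRSF10D and TNFRSF11B fell with Dex at both times, beside 5.82% of all genes at 2 h and 18.2% at 4 h. TNFRSF10D binds TRAIL and has a shortened death domain. It was at 7.71 and 7.75 RPKM in vehicle, 6.09 and 6.18 after 2 h of Dex, 4.93 and 4.96 after 4 h of Dex, 3.23 and 3.40 after 2 h of CpdA, and 4.39 and 4.52 after 4 h of CpdA. All 5 groups lay apart, and the lowest was CpdA at 2 h. TNFRSF10D fell 2.29-fold after 2 h of CpdA (−1.20 ± 0.05, adjusted p = 4.5e-06), the one change over 2-fold after CpdA among the 25 tested members, and 1.72-fold after 4 h (−0.78 ± 0.05, adjusted p = 4.1e-05). With Dex it fell 1.26-fold at 2 h (−0.33 ± 0.05, adjusted p = 0.004) and 1.55-fold at 4 h (−0.63 ± 0.05, adjusted p = 3e-05).

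TNFRSF11B encodes osteoprotegerin, a soluble decoy for RANK ligand that also binds TRAIL. It was at 5.805 and 5.736 RPKM in vehicle, 3.31 and 3.29 after 2 h of Dex, 1.52 and 1.58 after 4 h of Dex, 5.31 and 4.94 after 2 h of CpdA, and 4.70 and 4.29 after 4 h of CpdA. The Dex samples lay below all others, and those at 4 h lowest. The fall was 1.72-fold at 2 h of Dex (−0.79 ± 0.07, adjusted p = 7.5e-05) and 3.56-fold at 4 h (−1.83 ± 0.07, adjusted p = 1.6e-07). At 4 h of CpdA it was 1.28-fold lower (−0.36 ± 0.07, adjusted p = 0.0071), a call lost without CpdA 4 h replicate 2 (−0.29, adjusted p = 0.076).

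The remaining decoys, TNFRSF10C (0.264 to 0.716 RPKM) and TNFRSF6B (1.28 to 3.93 RPKM), were not called against vehicle. Values of TNFRSF6B are uncertain, since its locus overlaps RTEL1 and whether reads were counted by strand was not given in the sources used here. TNFRSF10A, TNFRSF10B, TNFRSF10C and TNFRSF10D are close copies that lie side by side, and how reads that match several of them were assigned was likewise not given.

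Of the 8 other receptors tested, 1 fell after 2 h of Dex and 3 after 4 h, beside 5.82% and 18.2% of all genes. TNFRSF12A was at 240.4 and 259 RPKM in vehicle, 194 and 178 after 2 h of Dex, 183 and 169.8 after 4 h of Dex, 249 and 229 after 2 h of CpdA, and 250.7 and 236 after 4 h of CpdA. Every Dex sample lay below every other sample, and CpdA and vehicle overlapped. It fell 1.34-fold at 2 h of Dex (−0.43 ± 0.07, adjusted p = 0.0033) and 1.42-fold at 4 h (−0.50 ± 0.07, adjusted p = 0.00055). TNFRSF19 (TROY) was at 1.11 and 1.04 RPKM in vehicle, 0.954 and 0.905 after 2 h of Dex, 0.602 and 0.684 after 4 h of Dex, 0.864 and 1.06 after 2 h of CpdA, and 0.833 and 0.871 after 4 h of CpdA. The samples of Dex at 4 h lay below all others, and TNFRSF19 was 1.58-fold lower there than in vehicle (−0.66 ± 0.13, adjusted p = 0.0053).

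TNFRSF1B, the TNF receptor without a death domain, fell after 4 h of CpdA. It was at 2.16 in both vehicle samples, 1.79 and 1.85 after 2 h of Dex, 1.54 and 1.85 after 4 h of Dex, 2.13 and 1.93 after 2 h of CpdA, and 1.47 and 1.33 RPKM after 4 h of CpdA. All treated samples lay below vehicle, and those of CpdA at 4 h were lowest. It was 1.51-fold lower there (−0.59 ± 0.11, adjusted p = 0.0049). The fall after 4 h of Dex (−0.34 ± 0.11, adjusted p = 0.043) held in 5 of 19 alternatives and was lost without, among others, Dex 4 h replicate 1 (−0.22, adjusted p = 0.18) or either vehicle replicate (both −0.34, adjusted p = 0.12).

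TNFRSF14 (HVEM), a receptor that binds LIGHT and BTLA, was at 4.44 and 3.86 RPKM in vehicle, 3.74 and 4.02 after 2 h of Dex, 4.04 and 3.39 after 4 h of Dex, 4.26 and 3.88 after 2 h of CpdA, and 3.20 and 3.27 after 4 h of CpdA. The samples of CpdA at 4 h lay below all others and the other groups overlapped. It was 1.27-fold lower after 4 h of CpdA (−0.35 ± 0.10, adjusted p = 0.041), which held in 8 of 19 alternatives and was lost without, among others, vehicle replicate 1 (−0.25, adjusted p = 0.2), CpdA 4 h replicate 1 (−0.33, adjusted p = 0.18) or CpdA 4 h replicate 2 (−0.36, adjusted p = 0.14). CD40 (15.1 to 19.5 RPKM), TNFRSF11A (RANK, 0.735 to 1.57), TNFRSF18 (0.358 to 0.818) and TNFRSF13C (0.0919 to 0.536) were not called against vehicle. CD40 differed from vehicle by −0.17 at 4 h of Dex (95% interval −0.34 to 0.00) and −0.11 at 4 h of CpdA (−0.28 to 0.06).

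Dex and CpdA were next compared with each other at the same time, which uses no vehicle sample in the difference. At 2 h, 8 of 25 members were called against 13.7% of all genes, 2 of them higher with Dex (7.53% of all genes) and 6 lower (6.18%). At 4 h, 10 were called against 33.4%, 1 higher (15.4%) and 9 lower (18.0%). The difference itself changed between the times for 8 members, against 6.60% of all genes. TNFSF9 differed by −1.48 ± 0.05 at 2 h (adjusted p = 9.4e-08) and −1.53 ± 0.05 at 4 h (adjusted p = 3.5e-08), a fold of 2.80 and 2.89. TNFSF10 went from −0.89 to −1.96 ± 0.10, TNFSF15 from −0.64 to −2.05 ± 0.10 and TNFRSF11B from −0.62 to −1.48 ± 0.07 between the times, and TNFRSF1A from 0.51 to 0.99 ± 0.05. TNFRSF10D was higher with Dex at 2 h (0.87 ± 0.05, adjusted p = 6.2e-06), and at 4 h the difference of 0.15 (95% interval 0.02 to 0.27 before adjustment) was not called. TNFRSF10B and TNFRSF10A did not differ beyond their error at 2 h (0.01, 95% interval −0.13 to 0.14, and −0.01, −0.11 to 0.09), and both were lower with Dex at 4 h (−0.55 ± 0.06 and −0.27 ± 0.04). TNFRSF6B was lower with Dex at 4 h (−0.75 ± 0.24, adjusted p = 0.04), which was lost without any 1 of the 4 samples compared (adjusted p = 0.058 to 0.22), without either sample of CpdA at 2 h (both 0.059) and without either vehicle replicate (both 0.058). TNFRSF12A was lower with Dex at both times (−0.36 ± 0.07 and −0.46 ± 0.07), the first of which was lost without CpdA 2 h replicate 1 (−0.30, adjusted p = 0.073) or Dex 2 h replicate 2 (−0.30, adjusted p = 0.065).

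**Figure D4:**
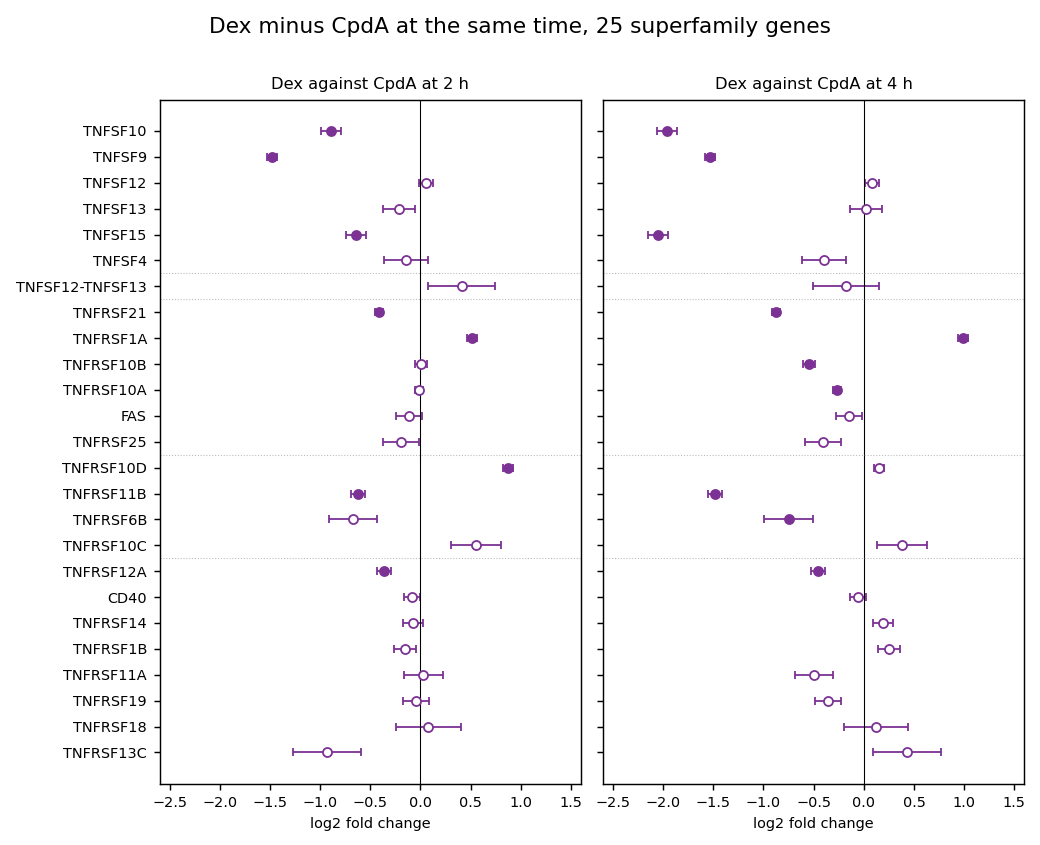
Dex minus CpdA at 2 h and at 4 h for the 25 tested members on the log2(RPKM + 0.1) scale; points are limma estimates, bars 1 standard error, and filled points are called at adjusted p under 0.05. TNFSF9 lies at nearly the same place in both panels (−1.48 and −1.53), whereas TNFSF10 and TNFSF15 lie farther left at 4 h.

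With time, 10 members differed between 4 h and 2 h of Dex against 13.6% of all genes, 1 higher (4.55%) and 9 lower (9.02%). TNFSF10 fell further by 0.96 ± 0.10 on the log2 scale, TNFSF15 by 1.02 ± 0.10, TNFRSF11B by 1.05 ± 0.07, TNFRSF10B by 0.60 ± 0.06 and TNFRSF21 by 0.46 ± 0.04, and TNFRSF1A rose further by 0.39 ± 0.05 (adjusted p for these 6 between 8.7e-05 and 0.00097). TNFSF9 and TNFRSF12A, which had fallen at 2 h, were not called between the times. The number of members called fell from 10 to 6 without Dex 2 h replicate 1 and in a fit of the 4 Dex samples alone. Between 4 h and 2 h of CpdA 3 members differed against 12.4% of all genes, 2 higher (5.21%) and 1 lower (7.20%). TNFRSF10D (0.41 ± 0.05, adjusted p = 0.0028) and TNFSF15 (0.38 ± 0.10, adjusted p = 0.045) were higher at 4 h, and TNFRSF1B was lower (−0.50 ± 0.11, adjusted p = 0.018). Of these, TNFRSF10D alone remained called without any 1 of the 4 CpdA samples, where adjusted p was 0.095 to 0.28 for TNFSF15 and 0.074 to 0.15 for TNFRSF1B. A test over all 5 groups called 13 members, 52.0% of those tested, against 41.4% of all genes. TNFSF4 is among these 13, which carries no weight, since it passed the filter through its highest group alone.

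Some members below the filter also differed when all 20668 genes were tested without it. TNFRSF9, the receptor of TNFSF9, was at 0.348 and 0.334 RPKM in vehicle, 0.180 and 0.191 after 2 h of Dex, 0.129 and 0.110 after 4 h of Dex, 0.203 and 0.204 after 2 h of CpdA, and 0.146 and 0.165 after 4 h of CpdA. All treated samples lay below vehicle, and the ranges of the 5 groups did not overlap. The log2 differences were −0.63, −1.01, −0.54 and −0.79 in that order (each ± 0.09), with adjusted p of 0.0085, 0.00046, 0.032 and 0.0029 beside 5.74%, 16.3%, 2.56% and 11.0% of all genes called without the filter. LTB, which forms the membrane lymphotoxin heterotrimer with LTA, was at 0.145 and 0.189 RPKM in vehicle and at 0.0189 to 0.0945 in the treated samples, and was called after Dex at 2 h (−0.84 ± 0.15, adjusted p = 0.026) and 4 h (−0.87 ± 0.15, adjusted p = 0.01) and after CpdA at 4 h (−1.11 ± 0.15, adjusted p = 0.0065). TNFSF18 (GITR ligand) was at 0.417 and 0.309 RPKM in vehicle and at 0.0987 and 0 after 4 h of Dex (−1.71 ± 0.32, adjusted p = 0.013). At such levels a value rests on few reads.

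**Figure D5:**
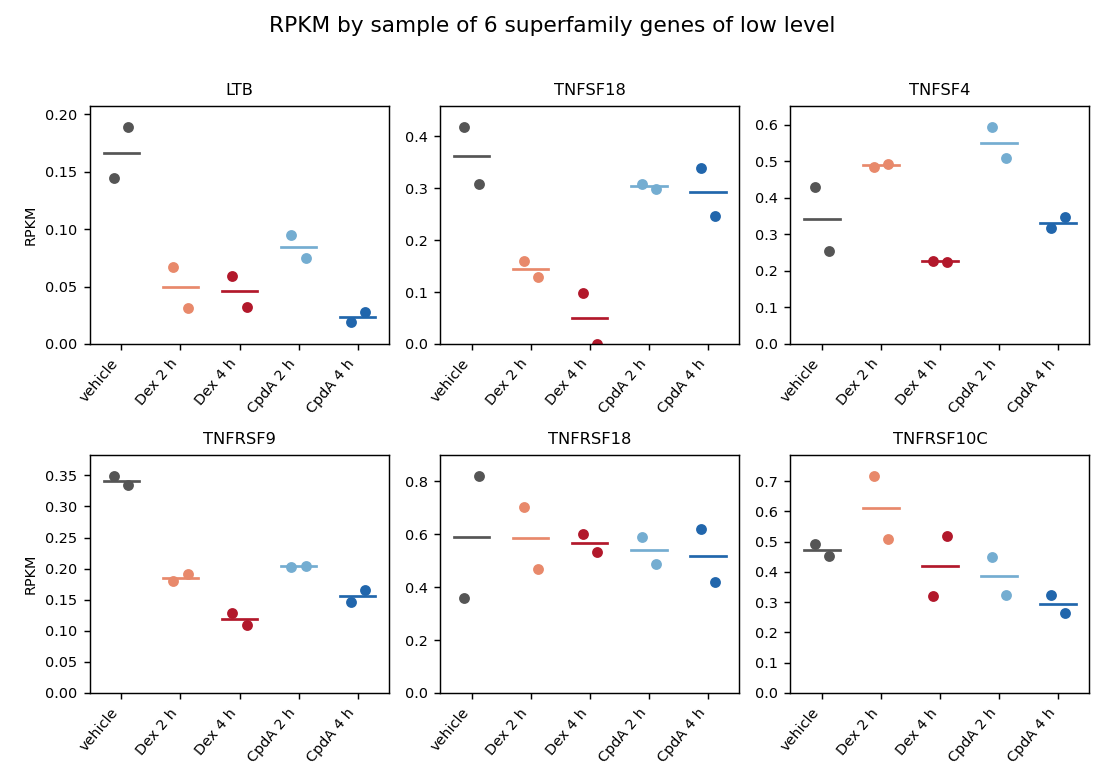
RPKM by sample of 6 members of low level, each panel with its own axis from 0; points are samples and lines group means (n = 2). LTB and TNFRSF9 lie below vehicle in all treated groups, TNFSF18 in the Dex groups, while the values of TNFRSF18 overlap between all groups.

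The promoter of TNFRSF9 is shown because it holds matches to both the AP-1 and the NF-κB motif, which capitals mark. FAS and TNFSF14 also had matches to both motifs. FAS was not called against vehicle, and TNFSF14 did not pass the filter. A link between these matches and the fall of TNFRSF9 was not tested. It lies at chr1:7940790-7941089 on the minus strand of GRCh38.p14. The NF-κB matches, 1 on each strand and overlapping, begin 74 and 73 bases before the start, and the AP-1 match 44 bases before it.
TNFRSF9: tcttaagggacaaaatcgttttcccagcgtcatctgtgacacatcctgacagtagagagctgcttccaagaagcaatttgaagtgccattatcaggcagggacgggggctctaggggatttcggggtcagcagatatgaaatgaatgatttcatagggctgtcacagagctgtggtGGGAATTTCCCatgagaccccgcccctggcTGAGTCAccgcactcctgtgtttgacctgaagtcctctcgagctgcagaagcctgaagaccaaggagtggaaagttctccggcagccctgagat

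Genes of the superfamily that are spelled otherwise were counted apart. LTBR, the lymphotoxin β receptor, was at 37.03 and 36.29 RPKM in vehicle, 42.6 and 41.7 after 2 h of Dex, 51.9 and 49.0 after 4 h of Dex, 37.2 and 37.4 after 2 h of CpdA, and 32.4 and 32.1 after 4 h of CpdA. It rose with Dex (0.20 ± 0.04 and 0.46 ± 0.04) and fell at 4 h of CpdA (−0.18 ± 0.04). For LTBR the call at 2 h of Dex was lost without either Dex 2 h sample (adjusted p = 0.1 and 0.052) or vehicle replicate 2 (0.062), and that at 4 h of CpdA without either CpdA 4 h sample (0.072 and 0.087) or vehicle replicate 1 (0.054). RELT fell with Dex (−0.39 ± 0.07 and −0.87 ± 0.07) and at 4 h of CpdA (−0.28 ± 0.07), calls that were lost at 2 h of Dex without Dex 2 h replicate 1 (adjusted p = 0.072) and at 4 h of CpdA without CpdA 4 h replicate 2 (0.18) or vehicle replicate 1 (0.12). NGFR, at 3.30 to 5.13 RPKM, fell at 4 h of CpdA (−0.49 ± 0.08). EDA and EDAR did not pass the filter, and EDA2R and CD40LG were not analysed here. ADAM10 and ADAM17, proteases that shed ligands and receptors of this family, were not called against vehicle.

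Of 40 genes that act downstream of these receptors, all tested, 16 were called after 2 h of Dex (5 higher, 11 lower) beside 10.3% of all genes, and 25 after 4 h (7 higher, 18 lower) beside 27.4%. After CpdA 15 were called at 2 h (2 higher, 13 lower) beside 6.18%, and 15 at 4 h (2 higher, 13 lower) beside 20.5%. Their median differences from vehicle were −0.13, −0.15, −0.18 and −0.15, beside −0.02, −0.05, −0.02 and −0.04 over all genes. TRAF1, an adaptor of receptors without a death domain, was at 14.9 and 9.59 RPKM in vehicle and 2.07 and 2.36 after 4 h of Dex (−2.38 ± 0.17). The vehicle samples of TRAF1 differed more than those of any treated group. CFLAR, which encodes the caspase-8 inhibitor c-FLIP, rose with Dex (0.38 ± 0.05 and 0.65 ± 0.05), and CASP8 fell at 4 h (−0.42 ± 0.07). TNFAIP3 (A20), a brake on NF-κB signalling, was at 5.35 and 3.32 RPKM in vehicle, and it rose with Dex (1.44 ± 0.18 and 1.20 ± 0.18) and fell with CpdA (−0.81 ± 0.18 and −1.02 ± 0.18). Its fall at 2 h of CpdA was −0.48 without vehicle replicate 1, and the call was lost without either CpdA 2 h sample (adjusted p = 0.16 and 0.17) and, at adjusted p = 0.052 to 0.054, without either sample of CpdA at 4 h or of Dex at 2 h. MAP3K14 (NIK), the kinase of the non-canonical NF-κB pathway, was at 19.0 and 14.2 RPKM in vehicle, and it fell with Dex (−0.63 ± 0.11 and −0.74 ± 0.11) and rose at 2 h of CpdA (0.69 ± 0.11), a call lost without either CpdA 2 h sample (adjusted p = 0.065 and 0.055). At 4 h of CpdA the difference of MAP3K14 was 0.38 ± 0.11, and it was 0.17 without vehicle replicate 2 (adjusted p = 0.054) and 0.59 without vehicle replicate 1; the call was also lost without any 1 of the CpdA samples or either Dex sample of 2 h (adjusted p = 0.056 to 0.15). NFKBIE, an inhibitor of NF-κB, fell with both, by 0.98 ± 0.07 and 1.35 ± 0.07 with Dex and by 0.62 ± 0.07 and 0.65 ± 0.07 with CpdA. NFKBIA, another such inhibitor, was higher with Dex. It was at 47.91 and 37.75 RPKM in vehicle, 131.8 and 126.5 after 2 h of Dex and 142.8 and 128.4 after 4 h. With CpdA NFKBIA was at 25.74 and 24.53 at 2 h and 48.72 and 46.96 at 4 h. BIRC3 was at 17.06 and 8.723 RPKM in vehicle, 36.74 to 55.56 with Dex and 5.704 to 8.646 with CpdA.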

How the data were processed

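RNA was taken from MDA-MB-231 cells in 5 groups of 2 samples. Per the study's methods and the submitters' processing notes, the authors sequenced single-end reads, aligned them with TopHat2 2.0.13 to hg19 and computed RPKM in Partek 6.6. The deposited values are RPKM per gene symbol, 20668 per sample; how transcripts were combined, whether strand was used and how reads matching several genes were treated are not given in the sources used here. Replicate numbers come from the labels.

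Values were taken to log2(RPKM + 0.1). Genes with 0.5 RPKM in at least 2 samples (12713) were tested with limma 3.58.1 (R 4.3.3), 1 model over the 5 groups with an abundance trend and no covariate, and p-values were adjusted by Benjamini-Hochberg over all genes tested; calls were made at adjusted p under 0.05. Errors of log2 differences are standard errors of that model. The code was tested on simulated data. Members with the value in every sample are those called against vehicle, and the 5 with the highest mean; others are given by range, except that TNFRSF9, LTB, TNFSF18, TNFSF4 and the genes of other lists were chosen for this after their values were seen. The members, lists and tests were chosen with earlier results of these data known. Alternatives were other pseudocounts (1 and 0.01), no filter, 1 RPKM in every sample, quantile normalization, median scaling, no trend, the compared samples alone, a replicate block and leaving out each sample, the last also for the list genes, chosen after seeing the data. Depth in reads was not known, so no counting intervals are given. Positions of genes came from GENCODE 44 on GRCh37 and promoters from RefSeq on GRCh38.p14.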

Additional observations from a re-analysis of the deposited data

Results flagged for a closer look

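Of the members, 10 differed between the times of Dex by a test of the difference itself (limma), beside 13.6% of all genes. On the log2 scale, 4 h minus 2 h of Dex was −1.05 for TNFRSF11B, −1.02 for TNFSF15, −0.96 for TNFSF10, −0.85 for TNFSF4, −0.60 for TNFRSF10B, −0.47 for TNFRSF19, −0.46 for TNFRSF21, −0.31 for TNFRSF10D, −0.19 for TNFRSF10A and 0.39 for TNFRSF1A. Of these, the calls of TNFSF4, TNFRSF19, TNFRSF10D and TNFRSF10A were each lost when Dex 2 h replicate 1 or Dex 2 h replicate 2 was left out, among other settings. TNFSF4 had passed the filter through its highest group alone.

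For CpdA, 4 h minus 2 h was 0.41 for TNFRSF10D, −0.50 for TNFRSF1B and 0.38 for TNFSF15.

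The difference of Dex from CpdA itself differed between the times for 8 members, beside 6.60% of all genes. The change of that difference from 2 h to 4 h was −1.40 for TNFSF15, −1.07 for TNFSF10, −0.86 for TNFRSF11B, −0.72 for TNFRSF10D, −0.56 for TNFRSF10B, −0.47 for TNFRSF21, −0.26 for TNFRSF10A and 0.47 for TNFRSF1A. The adjusted p-values ran from 0.0013 for TNFSF15 to 0.039 for TNFRSF10A, whose call was lost without any 1 of the CpdA samples, either Dex sample of 2 h or Dex 4 h replicate 1. No sample was tested for standing apart within its group, since groups held 2 samples.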

How the results depend on the processing

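Of the 32 calls of a member against vehicle, 25 kept their direction and their side of the threshold under every alternative that gave a value, and of the 71 calls over all comparisons 55 did; 0 reversed. The calls against vehicle that were lost under some alternative were those of TNFRSF10B at 2 h of Dex and of CpdA, TNFRSF1B at 4 h of Dex, TNFSF15 at 2 h of CpdA, and TNFRSF11B, TNFRSF14 and TNFRSF1A at 4 h of CpdA. A fit of the compared samples alone called 6 members in place of 10 between 4 h and 2 h of Dex, and 7 in place of 3 between 4 h and 2 h of CpdA; each such fit held 4 samples. Leaving out 1 sample at a time gave 2 to 5 members after 2 h of CpdA (2 without CpdA 2 h replicate 1 or 2), 4 to 7 after 4 h of CpdA (4 without CpdA 4 h replicate 2), 6 to 9 between the times of Dex (6 without Dex 2 h replicate 1) and 1 to 4 between the times of CpdA (1 without any CpdA sample); the sample left alone in its group was assumed to vary like the other groups. Same-numbered samples of different groups deviated together weakly at most (r over 10 pairs of groups −0.057 to 0.198, 3 over 0.1). The numbers were therefore not taken to pair the samples in the main model. With a replicate block 9 and 12 members were called after Dex, 4 and 7 after CpdA, 10 and 4 between the times of Dex and of CpdA, 8 and 11 between Dex and CpdA, and 16 over the 5 groups. TNFSF15 was not tested where 1 RPKM was required in every sample. Groups of 2 and an unknown number of reads limit the members below 1 RPKM most.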
